A study of Mus musculus with 12 samples.

Results

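The cytosolic translation elongation factors eEF1 and eEF2, together with the kinase of eEF2, were followed through the first hours of adipogenesis. The genes are Eef1a1, Eef1a2, Eef1b2, Eef1d, Eef1e1, Eef1g, Eef2 and Eef2k, and every array probe whose transcript accession belongs to one of these 8 genes was taken. The 8 genes, of 32301 gene names on the array, were read by 14 of its 41174 gene probes. Eef1d and Eef2 had 3 probes each, Eef1a1 and Eef2k had 2 each, and the other genes had 1 each. Probes of 1 gene are numbered from the brightest to the dimmest, they share a target gene and are not replicates of each other, and where each probe lies on its mRNA was not analysed here.

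3T3-L1 is a mouse embryonic fibroblast line of preadipocytes that turn into adipocytes after hormonal induction. Cells were grown to confluence in medium with 10% newborn bovine serum. They were lysed untreated (0 h) or 6 h after induction with 0.5 mM isobutylmethylxanthine (IBMX, which raises cAMP), 1 µM dexamethasone (a glucocorticoid) and 5 µg/ml insulin in medium with 10% fetal bovine serum. Lysates were run on sucrose gradients, and the non-polysomal pool was made of gradient fractions 5 to 7. The polysomal pool, which the study took to hold mRNAs attached to ribosomes, was made of gradient fractions 9 to 11. With 3 biological replicates per group, the 4 groups of time and fraction filled 12 one-color arrays on 3 slides, each slide holding 1 replicate of every group. The induction mixture was given as a whole, so the effects of its hormones and of the change of serum cannot be told apart.

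Elongation is the stage of translation in which amino acids are added. eEF1A, encoded by Eef1a1 and, in muscle and nerve, by Eef1a2, brings the aminoacyl-tRNA to the ribosome and hydrolyses GTP. The eEF1B complex, made of eEF1Bα (Eef1b2), eEF1Bδ (Eef1d) and eEF1Bγ (Eef1g), exchanges the GDP on eEF1A for GTP. eEF2 moves the ribosome to the next codon, and eEF2 kinase (Eef2k), a calcium/calmodulin-dependent enzyme that insulin signalling through mTOR and S6 kinase inhibits, phosphorylates eEF2 and so slows it. Eef1e1 encodes p18, also called AIMP3, an accessory protein of the multisynthetase complex. Many mRNAs of the translation machinery begin with a C followed by a run of pyrimidines (the TOP tract), through which growth and nutrient signals set how much of the mRNA is loaded onto ribosomes.

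Bases near the annotated starts are shown because the TOP tract is the feature for which this group of mRNAs is best known. RefSeq (GRCm38.p6) gave start regions for Eef1a1, Eef1a2, Eef1b2, Eef1e1, Eef2 and Eef2k, with 3 starts for Eef2k, and none was used for Eef1d and Eef1g. In each, the longest run made of a C followed by C or T on the sense strand was sought from 10 bases before to 50 bases after the annotated start, and 30 bases around the run are printed 5′ to 3′ with the run in capitals, so that a window need not hold the start itself.
Eef1a1, chr9:78481710-78481739, minus strand: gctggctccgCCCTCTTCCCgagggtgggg
Eef1b2, chr1:63176851-63176880, plus strand: tgcgtccgagcgCTTTCgttcaactccggc
Eef2, chr10:81176635-81176664, plus strand: acgtcagcggtCTCTTCCgccgcagccgcc
Eef1e1, chr13:38658999-38659028, minus strand: tgcaggccccgCCTCCCTaggagctgggcc
Eef1a2, chr2:181156979-181157008, minus strand: ctcactggttCTCTCCCTCgctccggtgca
Eef2k start 1, chr7:120842844-120842873, plus strand: ccctggtcccagCCTCCagcctccagctcc
Eef2k start 2, chr7:120843595-120843624, plus strand: ctgcccagctgcgCCCTgtgtgtgactgat
Eef2k start 3, chr7:120851201-120851230, plus strand: gattcaccgggCTCCTTCTgaacttacaca

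Only the run of Eef1a1 reached across the annotated start, from 5 bases before it, and with the start as base 1 the others began at base 33 in Eef1b2, 16 in Eef2, 12 in Eef1e1, 18 in Eef1a2 and 26, 9 and 24 at the Eef2k starts. The run in Eef1a1 was 10 bases long, and 7.38% of 32851 promoter entries held one at least that long in the same window. That of Eef1a2 was 9 bases long (10.7% of entries held as long a run), those of Eef2 and Eef1e1 were 7 bases (25.1%), that of Eef1b2 was 5 bases (58.1%), and those at the 3 Eef2k starts were 5, 4 and 8 bases (58.1%, 79.5% and 16.5%). The run at the third Eef2k start was thus longer than those of Eef2 and Eef1b2. The annotated start need not be the base where the mRNA begins, and whether any printed run lies in the mRNA or is its TOP tract was not tested. The 2 forms searched for a TATA box were TATATA and TATAAA, both on the sense strand only. In Eef1a1 TATATA began at base 24 counted from the annotated start as base 1, downstream of the printed run. In Eef2 TATAAA began 15 bases before the annotated start. One or both of these forms stood in 12.5% of the 300-base promoter entries.

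Signals are log2 intensities after background subtraction, scaled by control RNAs added to every sample (spike-ins). By the scanner software, 55.6% to 60.8% of an array's probes stood well above background, and 0 spots were saturated. Arrays of 1 group correlated at r = 0.985 to 0.992 over probes. On the arrays of polysomal RNA at 6 h the 5 dimmer of the 10 spike-in transcripts used read lower than on the other arrays, by a mean log2 difference of -0.83, and the 5 brighter ones by -0.09. The dimmer ones had mean log2 signals of 7.82 to 16.80 and the brighter ones of 18.30 to 19.06. The difference thus varied with brightness. How this acts on the member probes was followed only by a straight line fitted through the spike-ins of each array, with values given below. The median of all probes then differed with time and fraction: after scaling by the spike-ins it was higher at 6 h than at 0 h by 0.54 on the log2 scale in polysomal RNA and by 0.04 in non-polysomal RNA, so member values are given beside that median. A signal per array does not say how much RNA each cell held, and fewer cells and less RNA per cell cannot be told apart in it. Every marker probe of mesenchymal cells (16 of 16) was well above background in at least 1 group, and 0 of 5 haematopoietic probes were. Of the marker probes of mature adipocytes 6 of 8 were, of muscle and neuron 3 of 7, and of endothelial and of epithelial cells 1 of 4 each.

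**Figure D1:**
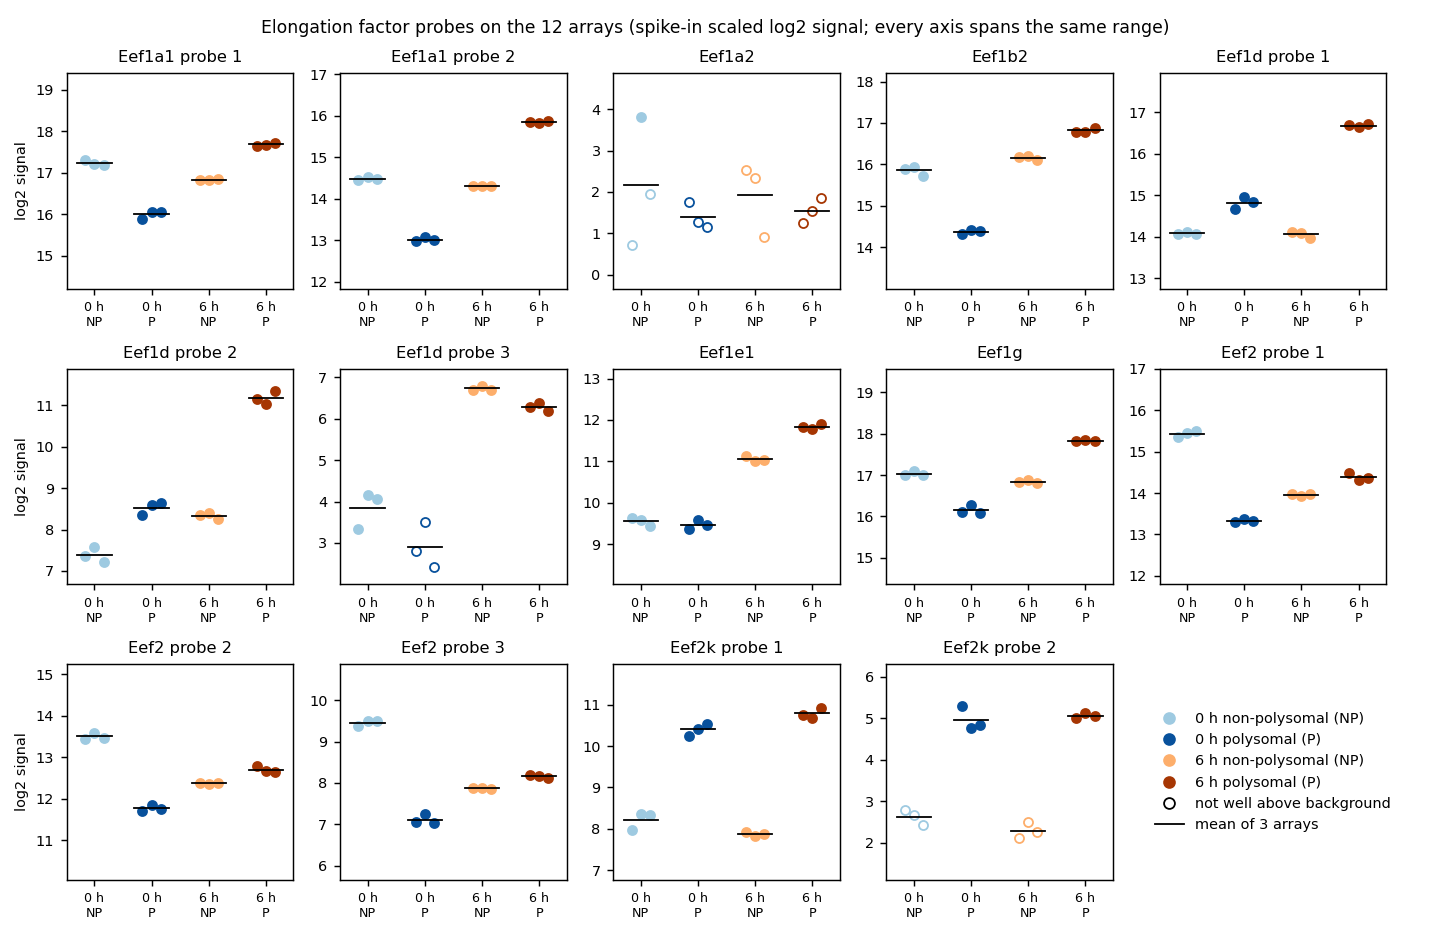
Spike-in scaled log2 signal of the 14 elongation factor probes on the 12 arrays, with 1 panel per probe. NP is non-polysomal and P polysomal RNA, bars are means of 3 arrays, and open points were not well above background. Polysomal signals at 6 h are the highest of the 4 groups for Eef1a1, Eef1b2, Eef1e1, Eef1g and Eef1d probes 1 and 2, whereas the 3 Eef2 probes are highest in non-polysomal RNA at 0 h and the Eef2k probes are high in both polysomal groups. With scaling to the 75th percentile the polysomal signals of Eef1a1 probe 1, Eef1b2, Eef1e1, Eef1g and Eef2 at 6 h lie below the non-polysomal ones.

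The question put to these genes was whether the balance of their mRNAs between the fractions changed when adipogenesis was induced. The M-value measures that balance: the change from 0 h to 6 h in polysomal RNA minus the same change in non-polysomal RNA, on the log2 scale. It does not follow mRNAs from one pool to the other, and a shift below means a change of this balance. A probe was called when limma's adjusted p over 41155 probes was below 0.05 and the log2 difference exceeded 1 in size. The probes of Eef1a1, Eef1b2, Eef1g and Eef2 and Eef1d probes 1 and 2 shifted towards the polysomal fraction by 3.26-fold to 8.10-fold, while Eef1e1 and Eef2k shifted by 1.81-fold and 1.66-fold. Of the 14 member probes, 9 were called with a shift towards polysomes, while 12.1% of all probes tested were. None was called in the other direction (1.31% of all probes). All 14 M-values were above 0 on the spike-in scale, as were 80.8% of those of all probes. With quantile normalization the M-values of Eef1a2 (-0.08), Eef1d probe 3 (-0.40) and Eef2k probe 2 (-0.05) were below 0. That of Eef1a2 was also below 0 with the 75th percentile (-0.03). With the M-values below 1 counted too, 11 member probes had an adjusted p below 0.05, as did 36.1% of all probes. The median M-value was 1.88 over the member probes and 0.49 over all probes. This excess was smaller when each array was scaled by a fitted spike-in line, which moved the median of all probes to 1.41. Called up were then 13 of the 14 member probes and 25912 of 41155 probes. The 9 probes called on the spike-in scale had M-values of 1.75 (Eef1g) to 3.35 (Eef2 probe 3) there, all nearer to the median of all probes than before. With quantile normalization, which puts the median of all probes near 0, the 9 called probes had M-values of 0.93 to 2.44, and Eef1g, the lowest, was no longer called.

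Eef1a1 was well above background on all 12 arrays with both probes. The log2 signal of its probe 1 was 17.31, 17.22 and 17.18 in non-polysomal RNA and 15.88, 16.06 and 16.04 in polysomal RNA at 0 h. At 6 h it was 16.82, 16.83 and 16.85 in non-polysomal and 17.65, 17.67 and 17.72 in polysomal RNA. The 4 groups did not overlap: before induction the non-polysomal signal was the higher one, and at 6 h, on the spike-in scale, the polysomal signal was, an order that scaling to the 75th percentile turned (-0.46). The M-value was 2.09 (SE 0.10; adjusted p = 1.4e-06), 4.26-fold, and within the 3 slides it was 2.26, 2.01 and 2.01. Probe 2 had an M-value of 3.02 (SE 0.08; adjusted p = 6.2e-07), 8.10-fold, higher than the M-values of 99.7% of all probes. Its polysomal signal went from 12.98, 13.07 and 12.99 to 15.85, 15.83 and 15.88, and its non-polysomal signal was 14.45, 14.52 and 14.46 at 0 h and 14.29, 14.30 and 14.31 at 6 h. Both probes carry the same accession, and their 95% intervals, 1.87 to 2.31 and 2.83 to 3.21, did not overlap. Eef1a1 has many near-identical pseudogenes in the mouse genome, and how much their transcripts add to either probe was not tested.

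The subunits of the exchange complex eEF1B moved in the same direction. Eef1b2 had log2 signals of 15.89, 15.94 and 15.73 in non-polysomal RNA at 0 h and 14.31, 14.41 and 14.39 in polysomal RNA at 0 h. At 6 h these were 16.17, 16.20 and 16.10 in non-polysomal RNA and 16.79, 16.79 and 16.89 in polysomal RNA. On the spike-in scale polysomal Eef1b2 went from the lowest of the 4 groups to the highest (at 6 h the 75th percentile put it at -0.64 against the non-polysomal pool), with an M-value of 2.15 (SE 0.11; adjusted p = 1.5e-06), 4.44-fold. Eef1g, the γ subunit, went the same way: its polysomal signal was 16.10, 16.27 and 16.09 at 0 h and 17.83, 17.85 and 17.81 at 6 h, with non-polysomal signals of 16.99, 17.10 and 17.01 and then 16.84, 16.87 and 16.81. Its M-value was 1.87 (SE 0.10; adjusted p = 1.9e-06), 3.66-fold. Within the slides the M-values lay between 2.12 and 2.20 for Eef1b2 and between 1.81 and 1.93 for Eef1g.

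Eef1d, the δ subunit, is read by 3 probes of 1 accession, and they did not give the same picture. Probe 1 had non-polysomal signals of 14.07, 14.12 and 14.05 at 0 h and 14.12, 14.09 and 13.98 at 6 h, while its polysomal signals were 14.68, 14.95 and 14.83 and then 16.69, 16.64 and 16.72. The non-polysomal groups overlapped (adjusted p = 0.90) and the polysomal ones did not, and the M-value was 1.88 (SE 0.11; adjusted p = 3.9e-06), 3.68-fold. Probe 2 was at 7.36, 7.57 and 7.22 in non-polysomal RNA and 8.34, 8.60 and 8.64 in polysomal RNA at 0 h, and rose in both, to 8.34, 8.39 and 8.26 and to 11.16, 11.03 and 11.34, with an M-value of 1.70 (SE 0.17; adjusted p = 6.6e-05). Probe 3 was not well above background in any array of polysomal RNA at 0 h (2.82, 3.51 and 2.41). It read 3.35, 4.16 and 4.06 in non-polysomal RNA at 0 h, 6.70, 6.80 and 6.70 in non-polysomal RNA at 6 h and 6.29, 6.38 and 6.18 in polysomal RNA at 6 h. This probe was 9.23-fold brighter at 6 h than a bound for 0 h in polysomal RNA, and limma gave an adjusted p of 2.6e-06. The bound was each array's lowest signal rated well above background, or the probe's own signal where that was higher. That bound was computed on the spike-in scale and is not a minimum over settings, as smaller changes came from others: the log2 change was 3.37 on that scale, 1.71 with the authors' values, 1.26 when spots of uneven background were kept out of a normexp fit and 2.66 with plain normexp (adjusted p = 0.090). Its M-value was 0.49 with a 95% interval from -0.37 to 1.36 (adjusted p = 0.32), which did not pass the test, whereas a straight line through the spike-ins gave 1.35 (adjusted p = 0.015). In non-polysomal RNA the change differed among the 3 probes: -0.02, 0.95 and 2.88 on the log2 scale.

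Eef2, the translocase, fell in the non-polysomal pool while it rose in the polysomal pool on the spike-in scale (with quantile normalization the polysomal change of probe 1 was 0.10, adjusted p = 0.34). Probe 1 read 15.35, 15.46 and 15.50 in non-polysomal RNA at 0 h, the highest group, and 13.97, 13.93 and 13.97 there at 6 h. In polysomal RNA it was 13.30, 13.37 and 13.33 at 0 h and 14.48, 14.32 and 14.37 at 6 h. The M-value of 2.54 (SE 0.10; adjusted p = 1.1e-06), 5.80-fold, was thus made up of a change in both pools. Probe 2, at 13.44, 13.60 and 13.48 before and 12.38, 12.36 and 12.39 after induction in non-polysomal RNA and 11.69, 11.86 and 11.76 before and 12.79, 12.67 and 12.65 after it in polysomal RNA, had an M-value of 2.06 (SE 0.11; adjusted p = 1.7e-06). Probe 3 read 9.37, 9.50 and 9.51 and then 7.88, 7.88 and 7.84 in non-polysomal RNA, and 7.05, 7.24 and 7.02 and then 8.19, 8.16 and 8.13 in polysomal RNA, with an M-value of 2.65 (SE 0.11; adjusted p = 1.2e-06), 6.26-fold. In all 3 probes the 4 groups were in the same order on the spike-in scale and did not overlap, and within slides the M-values were 1.98 to 2.77.

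**Figure D2:**
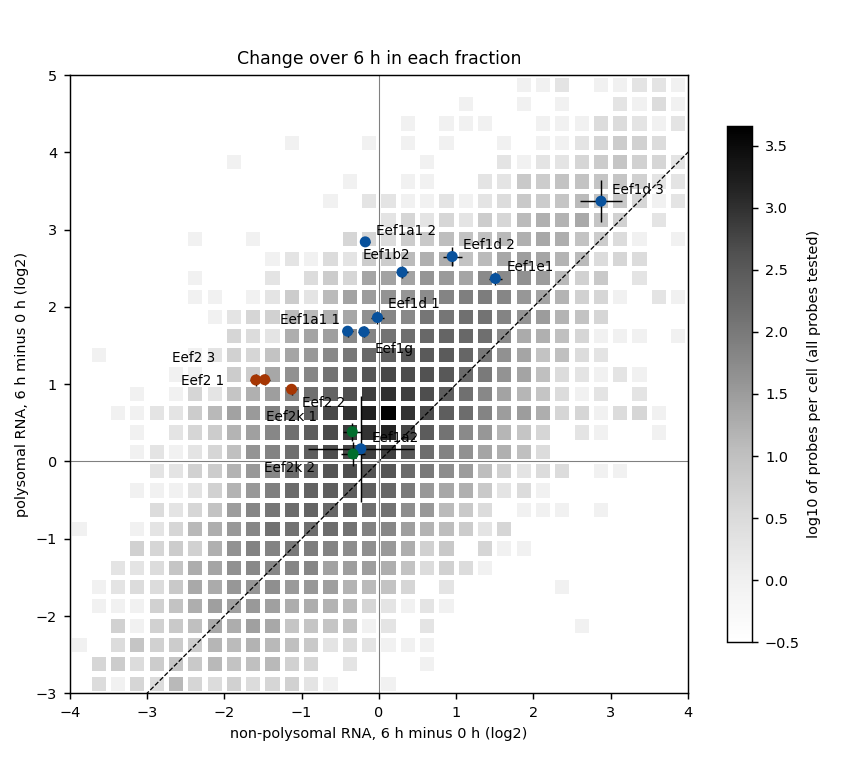
Change from 0 h to 6 h in polysomal RNA (vertical axis, log2) against that in non-polysomal RNA (horizontal axis, log2) for the member probes (blue eEF1 genes, red Eef2, green Eef2k; bars are standard errors), over the density of all 41155 probes tested in grey. On the dashed line both fractions change alike. The Eef2 probes lie apart from the eEF1 probes, with non-polysomal changes of -1.13 to -1.59, and the Eef2k probes lie near the bulk of all probes.

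Eef2k, whose product acts on eEF2, had its higher signals in the polysomal pool at both times. Eef2k probe 1 read 7.98, 8.35 and 8.33 in non-polysomal RNA and 10.25, 10.41 and 10.54 in polysomal RNA at 0 h. At 6 h it read 7.92, 7.83 and 7.89 in non-polysomal and 10.75, 10.69 and 10.92 in polysomal RNA. The polysomal signals lay above the non-polysomal ones at both times without overlap, and the M-value was 0.73 (SE 0.17; adjusted p = 0.0070), 1.66-fold. This is 0.24 above the median of all probes, and when the arrays were scaled to their 75th percentile, which moves that median to 0.06, it was 0.31 with an adjusted p of 0.15. A straight line through the spike-ins gave 1.21 (adjusted p = 1.9e-04), and without replicate 2 or without replicate 3 the adjusted p was 0.088 and 0.081. Probe 2 was not well above background in any non-polysomal array (2.77, 2.66 and 2.42 at 0 h and 2.10, 2.50 and 2.25 at 6 h) and read 5.31, 4.76 and 4.83 and then 5.01, 5.13 and 5.05 in polysomal RNA. On the spike-in scale, polysomal over non-polysomal signal was at least 4.11-fold at 0 h and at least 4.25-fold at 6 h, with measured log2 differences of 2.35 and 2.78. These were smaller in other settings, at 1.46 and 1.47 with the 75th percentile, 0.72 and 1.10 with the authors' values and 0.43 and 0.79 with the same restricted normexp fit. The M-value of 0.43 (95% interval -0.08 to 0.94; adjusted p = 0.15) did not pass the test, but it did when a line was fitted to the spike-ins (1.40, adjusted p = 0.0011), with the restricted normexp fit (0.36, adjusted p = 0.0098), with the authors' values (0.37, adjusted p = 0.033) and without replicate 1 of polysomal RNA at 0 h (0.60, adjusted p = 0.034).

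Eef1e1 and Eef1a2 complete the set. Eef1e1 rose in both pools, from 9.62, 9.58 and 9.45 to 11.12, 11.02 and 11.04 in non-polysomal RNA and from 9.36, 9.60 and 9.46 to 11.83, 11.78 and 11.91 in polysomal RNA. At 0 h the pools overlapped, and at 6 h the polysomal signals were the higher ones on the spike-in scale, though not with the 75th percentile (-0.53) or quantile normalization (-0.60). Its M-value was 0.86 (SE 0.12; adjusted p = 4.0e-04), 1.81-fold. Scaling to the 75th percentile gave 0.44 (adjusted p = 0.0010), and quantile normalization 0.41 (adjusted p = 9.6e-04). Eef1a2, the form of muscle and nerve, was well above background on 1 of 12 arrays, with log2 signals between 0.72 and 3.81 and groups that all overlapped, and its M-value (0.40, SE 0.97; adjusted p = 0.76) says nothing about a shift.

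**Figure D3:**
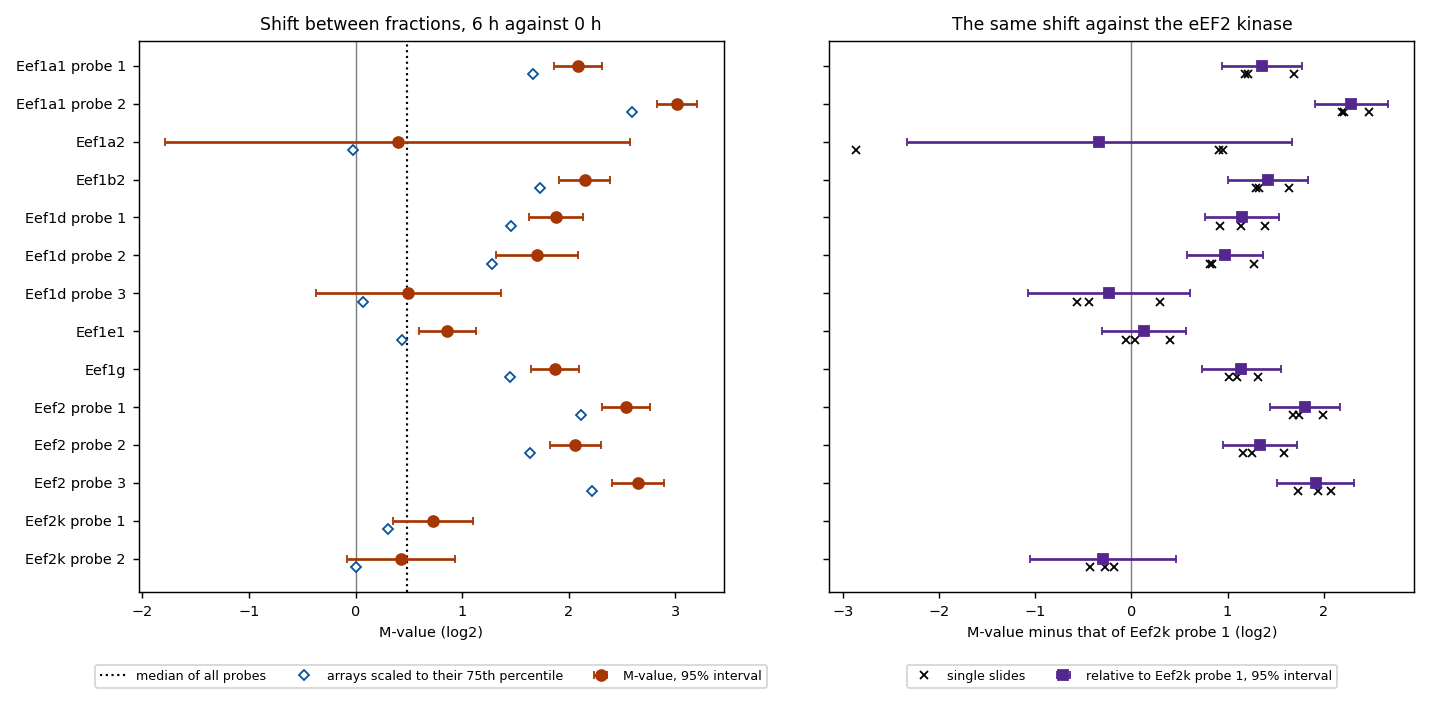
Left, the M-value of each member probe (log2, points with 95% intervals), the same value after scaling the arrays to their 75th percentile (diamonds) and the median of all probes (dotted line). Right, the M-value after subtracting Eef2k probe 1 on every array (log2, squares with 95% intervals, crosses for the single slides); the probes of Eef1a1, Eef1b2, Eef1g and Eef2 and Eef1d probes 1 and 2 lie above 0, and Eef1e1 lies at 0.13.

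The shift of the factors was then measured against that of the kinase, within each array. The signal of Eef2k probe 1 was subtracted from every other probe and the fit repeated, so that an offset common to an array cancels. Relative to the kinase, 8 of the other 13 member probes were called with a shift towards polysomes, against 1.63% of all probes (6.79% were called in the other direction). Eef1a1 had relative M-values of 1.36 and 2.29, Eef1b2 of 1.42, Eef1d probe 1 of 1.15, Eef1g of 1.14 and the Eef2 probes of 1.81, 1.33 and 1.92, with standard errors of 0.16 to 0.19 and adjusted p-values of 1.4e-04 to 0.0023. Eef1d probe 2 had 0.97 (adjusted p = 0.0044), just below the limit of 1. For all of these the relative value was above 0 in each of the 3 slides. Eef1e1 had 0.13 with a 95% interval from -0.30 to 0.56 (adjusted p = 0.69), an interval that leaves room for a shift of either sign. Without the arrays of replicate 2, the 8 probes had relative M-values of 1.21 to 2.34 and limma's adjusted p-values of 0.054 to 0.11, so that 0 were called, though all 8 had an unadjusted p below 0.05. A straight line through the spike-ins and quantile normalization do not cancel here, and left 4 and 5 called. The shares of all probes called in these 2 settings are not given here.

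Within polysomal RNA alone, most of the members rose over 6 h. Of the 14 probes, 10 were called higher at 6 h, against 19.2% of all probes, and none was called lower (5.01% of all probes), all 14 changes being above 0 on the spike-in scale, though not for Eef1a2 and the Eef2k probes with the 75th percentile (-0.32, -0.10 and -0.39) or quantile normalization (-0.31, -0.22 and -0.20). The median change was 1.68 for the member probes and 0.54 for all probes. The eEF1 mRNAs other than Eef1a2 rose by 1.68 to 3.37 on the log2 scale, with Eef1a1 at 1.69 and 2.84, Eef1b2 at 2.45, Eef1g at 1.68 and Eef1e1 at 2.37. With quantile normalization Eef1a1 probe 1 was at 0.48, Eef1d probe 1 at 0.68 and Eef1g at 0.55, and 5 probes were called. The share of all probes called in that setting is not given here. The 3 Eef2 probes rose by 1.06, 0.93 and 1.06, values that quantile normalization brought to 0.10 (adjusted p = 0.34), 0.17 (adjusted p = 0.052) and 0.68. Eef2k probe 1 rose by 0.39 (SE 0.12; adjusted p = 0.017), a direction that turned with 75th percentile scaling (-0.10) and quantile normalization (-0.22), and probe 2 differed by 0.10 (adjusted p = 0.61).

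In non-polysomal RNA the change differed in sign among the member probes. Of the 14 probes, 2 were called higher at 6 h (8.09% of all probes) and 3, all of Eef2, lower (8.14% of all probes). The count called higher lies near the share of all probes. Those called lower were the 3 Eef2 probes, at -1.48, -1.13 and -1.59 with standard errors of 0.07 to 0.08, so that non-polysomal Eef2 fell to between 33.2% and 45.7% of its level at 0 h. Those called higher were Eef1d probe 3 at 2.88 and Eef1e1 at 1.51. Between them stood Eef1a1, which fell by 0.40 (adjusted p = 9.6e-04) and by 0.18 (adjusted p = 0.039, and 0.071 with the slide as a block), Eef1b2, which rose by 0.30 (adjusted p = 0.0087), and Eef1g at -0.19 (adjusted p = 0.053). Eef2k probe 1 fell by 0.34 (adjusted p = 0.041), which passed the test in 6 of 15 fits that left out arrays (adjusted p = 0.32 without replicate 2). The change of Eef1b2 was -0.0060 with quantile normalization, and that of Eef1a1 probe 2 passed the test in 3 of 15 fits that left out arrays. Eef1d probe 3 was dim in non-polysomal RNA at 0 h, with log2 signals of 3.35 to 4.16. Its change was 1.19 with the restricted normexp fit, 1.64 with the authors' values and -0.042 with plain normexp. The brightest Eef1d probe stood at -0.02.

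Before induction, Eef1a1, Eef1b2, Eef1g and Eef2 had their higher signals in the non-polysomal pool. In untreated cells 27.4% of all probes were called higher in the polysomal than in the non-polysomal pool and 9.81% lower. Of the 14 member probes, 3 were called higher and 6 lower. The 6 were both Eef1a1 probes (-1.24 and -1.47), Eef1b2 (-1.48) and the 3 Eef2 probes (-2.10, -1.74 and -2.35), and Eef1g stood at -0.88 (adjusted p = 1.2e-06). The 3 higher ones were both Eef2k probes (2.18 and 2.35) and Eef1d probe 2 (1.15), which was no longer called with the 75th percentile (0.26), quantile normalization (0.29) or the authors' values (0.98). Eef1d probe 1 was also higher in polysomal RNA, by 0.74 (adjusted p = 1.6e-05), but by -0.15 with 75th percentile scaling. That scaling moves the median of all probes in this comparison from 0.15 to -0.74, and all member probes with it.

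At 6 h, 5 member probes were called higher in polysomal RNA, against 37.4% of all probes, and 0 lower (6.42%), where 0 of the 2 negative differences had an unadjusted p below 0.05 in limma. Of these, Eef1d probe 3 (-0.45) was called lower with the 75th percentile (-1.76, adjusted p = 2.5e-04) and with quantile normalization (-1.41, adjusted p = 4.5e-04). The 5 were Eef1a1 probe 2 (1.55, but 0.24 with the 75th percentile and 0.49 with quantile normalization, below the limit of 1), Eef1d probes 1 and 2 (2.62 and 2.85) and both Eef2k probes (2.91 and 2.78). Eef1a1 probe 1 stood at 0.85, Eef1g at 0.99, Eef1e1 at 0.78, Eef1b2 at 0.67 and the Eef2 probes at 0.43, 0.33 and 0.29, each with an adjusted p below 0.05, but the median of all probes was 0.68. Whether these mRNAs were more abundant in the polysomal pool therefore depends on the scaling: with the 75th percentile, Eef1a1 probe 1 was at -0.46, Eef1g at -0.32, Eef1e1 at -0.53, Eef1b2 at -0.64 and the Eef2 probes at -0.88, -0.99 and -1.02. Relative to the median of all probes, Eef1b2 went from -1.63 at 0 h to -0.01 at 6 h, Eef1a1 probe 1 from -1.39 to 0.17 and Eef2 probe 1 from -2.25 to -0.25, while Eef2k probe 1 was at 2.03 and 2.23.

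**Figure D4:**
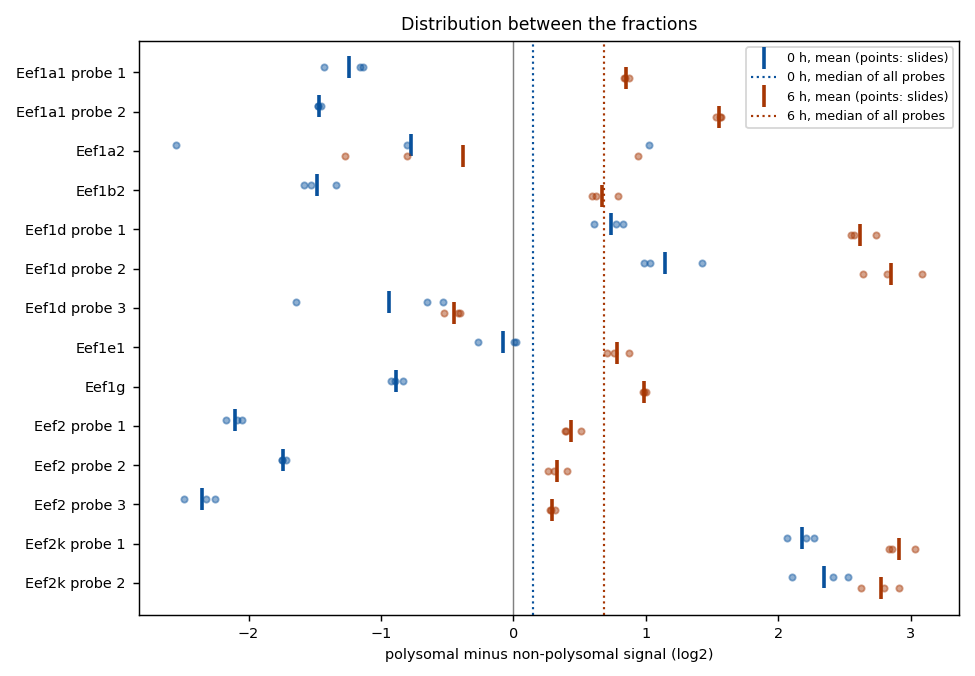
Polysomal minus non-polysomal signal (log2) of each member probe at 0 h (blue) and 6 h (red), with points for the 3 slides, thick marks for the means and dotted lines for the median of all probes at each time (0.15 and 0.68). Eef1a1, Eef1b2, Eef1g and Eef2 lie left of 0 and of the median at 0 h, and the Eef2k probes lie right of both lines at both times.

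Other genes of elongation were described by their counts and medians. Their counts stand against the 12.1% of all probes called with a shift towards polysomes and the median M-value of 0.49. Of 6 probes of mitochondrial elongation factors 2 were called with a shift towards polysomes, with Tufm (mitochondrial EF-Tu) highest at an M-value of 1.44 and Gfm1 (mitochondrial EF-G) lowest of those that passed the test at 0.51, and a median of 0.24. Of 16 probes of GTPases related to eEF1A and of eIF5A and its modifying enzymes 4 were called (median 0.72). Those past the test ranged from Hbs1l, a ribosome rescue factor, at 1.23 to Eif5a at 0.51. That Hbs1l probe was dim, with a mean log2 signal of 3.54, and well above background on 7 of 12 arrays (limma's adjusted p = 0.041). The brightest Hbs1l probe (mean log2 signal 11.39) had 0.78, and the lowest stood at 0.39 (adjusted p = 0.12). Of 11 probes of the enzymes that make diphthamide, the modified histidine of eEF2, 4 were called (median 0.69), from Dph1 at 1.21 to Dph2 at 0.45. Of 5 probes of the methyltransferases of the factors, Eef1akmt4 alone was called, at 1.06 (median 0.46), and Eef2kmt was the lowest that passed the test, at 0.46. None of these lists had an M-value below -0.32, so no probe was called in the other direction.

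The genes around eEF2 kinase were taken from its known regulators. Of 32 probes of its regulators and of the phosphatase that acts on eEF2, 5 were called towards polysomes and 0 away. Of all probes, 12.1% were called towards polysomes and 1.31% away. The median M-value of the 32 probes was 0.50, against 0.49 over all probes, and the highest past the test was Calm3, a calmodulin gene, at 1.13. Mtor was the lowest at -0.79 (adjusted p = 6.0e-04), a shift away from polysomes that is below the size needed for a call. The multisynthetase complex, to which the product of Eef1e1 belongs, was uneven: of 22 probes, counting the valyl-tRNA synthetase that binds eEF1B, 4 were called towards polysomes and 0 away (the lowest M-value being -0.86), with a median of -0.19. Qars (glutaminyl-tRNA synthetase) was the highest at 2.54 and Lars (leucyl-tRNA synthetase) the lowest at -0.86.

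Over the 12 arrays, the genes whose centred log2 profile lay nearest to a member were named by the root mean square difference among 16565 candidate probes, as a description. Among the nearest to Eef1a1 probe 1 were Nsa2 (0.13), then Eif3f, Hoxa3 and last Rps4x (0.16), of which Rps4x encodes a protein of the small ribosomal subunit and Eif3f a subunit of initiation factor eIF3. Nearest to Eef2 probe 1 were Eif4b (0.21), an initiation factor, then Iqcd, Doc2a, Aph1a and last Prss2 (0.27). Nearest to Eef2k probe 1 were Prepl (0.09), then Bphl, Rilpl1, Me2 and last P3h3 (0.10).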

How the data were processed

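RNA of 3T3-L1 cells from 4 groups of time and fraction was hybridised to one-color arrays with 3 biological replicates each. The deposited files of Feature Extraction, version 10.7.1.1, give each spot's intensity, background-subtracted by the software and not scaled between arrays. The authors also deposited log2 values, which are log2 median pixel intensities plus a constant per array and served as an alternative. Spots marked as outliers were left out, spots of a probe were averaged on the log2 scale, and each array was shifted by the mean of 10 spike-in transcripts, as the study normalised to spike-ins. Probes were named through their accessions and RefSeq (26690 probes matched). The 4 group means were fitted with limma 3.58.1 in R 4.3.3 (lmFit, eBayes, Benjamini-Hochberg over 41155 probes). Calls needed an adjusted p below 0.05 and a log2 difference above 1 or below -1. The fits were tested on simulated data.

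Named were all member probes, for each list the genes with the highest and lowest M-value among probes past the adjusted p and well above background on all arrays of some group, and the 5 nearest profiles, of which 1 is not reported here. The members and lists were chosen with earlier results of these data known. Alternatives were 75th percentile scaling, quantile normalization, a line fitted through the spike-ins, normexp (offset 50; on median spot signals, as mean signals were not used here), the authors' log2 values, leaving out dim probes, keeping outlier spots, a replicate block, a trend in the prior variance and leaving out arrays. After the data were seen, normexp without spots of non-uniform background was added. The number of arrays limits the precision. Depth is signal over background: the 75th percentile of intensity per array was 224 to 528.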

Additional observations from a re-analysis of the deposited data

Results flagged for a closer look

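The change over 6 h differed between the polysomal and the non-polysomal fraction, by limma's test of that difference (adjusted p below 0.05), for 11 of the 14 member probes, where 36.1% of all probes did. These M-values were 2.09 and 3.02 for Eef1a1, 2.15 for Eef1b2, 1.88 and 1.70 for Eef1d probes 1 and 2, 0.86 for Eef1e1, 1.87 for Eef1g, 2.54, 2.06 and 2.65 for Eef2 and 0.73 for Eef2k probe 1. The spike-ins read lower on the arrays of polysomal RNA at 6 h than on the others. Scaled to the 75th percentile of each array, without the spike-ins, the 11 M-values were 0.31 to 2.59.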

How the results depend on the processing

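The M-value calls of the member probes numbered 9, and 9 under 75th percentile scaling, 3 under normexp, whose values are not reliable because the fit was off on 3 arrays (median log2 signals of 8.32 to 10.19 against 6.28 to 6.81 on the others), and 3 to 13 over the settings that kept all arrays. The 13 came with the line fitted through the spike-ins, where 25912 of 41155 probes were called up. The 9 under 75th percentile scaling stand against 1545 of 41155. Normexp gave 3 calls for non-polysomal RNA (5 as reported), and quantile normalization gave 5 for polysomal RNA (10 as reported). Relative to Eef2k, the 8 calls became 5 with quantile normalization, 4 with a line fitted through the spike-ins, 0 with normexp and 0 without replicate 2. Leaving out arrays gave 9 to 9 calls for the M-value, 9 to 10 for polysomal RNA, 5 to 6 for non-polysomal RNA, 9 to 10 between fractions at 0 h, 5 to 6 at 6 h and 0 to 9 relative to Eef2k. Apart from the M-value, the share of all probes called in these alternatives is not given here. Those member counts therefore have no background beside them. The median M-value of all probes was 0.06 with 75th percentile scaling, -7.5e-04 with quantile normalization, 1.41 with the fitted line, 3.20 with normexp, 0.45 with normexp without non-uniform spots and 0.52 with the authors' values, and calls over all probes were 4981 up and 541 down as reported, 1545 and 1431 with the 75th percentile, 1268 and 1573 with quantile normalization, 25912 and 61 with the fitted line and 101 and 0 with normexp.

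Polysomal minus non-polysomal signal at 6 h turned negative with the 75th percentile for Eef1a1 probe 1 (-0.46), Eef1b2 (-0.64), Eef1e1 (-0.53), Eef1g (-0.32) and Eef2 (-0.88, -0.99 and -1.02), and with quantile normalization for Eef1b2 (-0.15), Eef1e1 (-0.60) and Eef2 (-0.67, -0.96 and -0.91). For Eef1a2 it turned to 0.34 with normexp without non-uniform spots and 0.38 with the authors' values. The same difference at 0 h turned to -0.15 for Eef1d probe 1 (75th percentile) and to -0.78 for Eef2k probe 2 (normexp). The non-polysomal change turned to -0.0060 for Eef1b2 (quantile) and -0.042 for Eef1d probe 3 (normexp), and the polysomal change of Eef2k probe 1 to -0.10 (75th percentile) and -0.22 (quantile). The 75th percentile moved the median of all probes from 0.68 to -0.63 between the fractions at 6 h, and all member probes with it. For the polysomal change it moved that median from 0.54 to 0.05. The cause of the changes in the other settings was not tested. Without replicate 1, 2 or 3 in turn, the polysomal rise of Eef2k probe 1 and the non-polysomal rise of Eef1b2 did not pass the test (adjusted p = 0.063 to 0.10).

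Each replicate number is also a slide, and samples of the same number deviated together in 4 of 18 pairs (r above 0.1; range -0.10 to 0.42). Pairs of different number ranged from r = -0.38 to 0.21, so that some of them also lay above 0.1. With the replicate block, which stands for the slide, 5025 probes were called up and 535 down for the M-value, the member calls for the M-value numbered 9, and the non-polysomal fall of Eef1a1 probe 2 no longer passed the test (adjusted p = 0.071), while no other call or test of a member probe changed. Signals near background limit Eef1a2, Eef1d probe 3 and Eef2k probe 2.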
